A study of Homo sapiens with 60 samples.

Results

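H1975 persisters are the cells of the human lung adenocarcinoma line H1975 that were still in culture after 21 days in 500 nM osimertinib, and they were compared with H1975 cells given the vehicle DMSO, using every gene listed in the deposited table of estimated counts. The 3 persister libraries (drug-tolerant persisters, DTP) and the 3 DMSO libraries are 6 of the 60 libraries of the series. The other libraries hold 3 further EGFR-mutant lung cancer lines (PC9, HCC827 and HCC2935) and, in each line, cells after 24 hours of 500 nM osimertinib (acute) and persisters after a short or a long drug washout. In H1975 the washouts lasted 24 and 72 hours. The parental cells behind the DMSO and acute groups spent 21 days in drug-free medium and then received DMSO or osimertinib for 24 hours, so that persisters and DMSO differ in the drug and in how long they were exposed to a treatment. All groups are 1 established cell line in culture, with the replicates stated to be biological triplicates, and the libraries give the average over all surviving cells.

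H1975 carries an EGFR gene with an activating mutation and the gatekeeper mutation that blocks earlier EGFR inhibitors, and osimertinib is the covalent inhibitor made against that form. EGFR signals through RAS, RAF, MEK and ERK to genes such as DUSP6 and SPRY4, which encode feedback inhibitors of ERK, and through PI3K and AKT, which keep FOXO transcription factors out of the nucleus. Persisters are cells that outlive such a drug with little division and without a fixed resistance mutation. Carcinoma cells can also exchange epithelial for mesenchymal gene expression, a switch in which ZEB and SNAI repressors oppose E-cadherin (CDH1) and the OVOL, GRHL and ESRP regulators of epithelial identity.

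The 6 libraries held 41.3 M to 49.1 M estimated counts (M, mega), and the 10 most abundant genes took 6.36 to 8.35% of them. Log expression correlated at 0.983 or above within the DMSO group and at 0.986 or above within the persister group, and no H1975 library correlated above 0.888 with a library of another line. DMSO replicate 2 stood apart from the other DMSO libraries: of 25 epithelial marker genes 23 were lowest in it, and of 46 interferon-stimulated genes 42 were lowest in it. Acute replicate 1 stood apart in the same direction, with 23 of the 25 and 40 of the 46 genes lowest among the acute libraries. The epithelial and interferon list counts against DMSO, and some single genes, are therefore also given without DMSO replicate 2. The counts of the cholesterol synthesis, fatty acid synthesis, and glycolysis and hypoxia lists are given without it too. As a check of the labelled cell type, 6 markers of an epithelial cell line (CDH1, EPCAM and keratins among them) summed to 3780 to 4980 CPM (counts scaled to the normalized total of each library) in DMSO and 2650 to 3350 CPM in persisters, and none of them was under 0.5 CPM throughout a group. The 8 leukocyte markers summed to 88.4 to 130 CPM in DMSO and 87.8 to 103 CPM in persisters, with 4 of 8 under 0.5 CPM in every library. The 5 endothelial markers summed to 3.22 to 6.22 and 9.81 to 15.3 CPM. The 7 fibroblast markers summed to 65.1 to 161 CPM in DMSO and 114 to 335 CPM in persisters, with 4 and 3 of 7 under 0.5 CPM in every library of the group. LUM, the lumican gene of fibroblast matrix, was at 0.0197, 0.155 and 0 CPM in DMSO and 1.44, 1.82 and 3.39 CPM in persisters, and the part of such cells in any result was not tested.

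Of 14699 genes tested, 6724 (45.7%) differed between persisters and DMSO at an adjusted p below 0.05 (edgeR's quasi-likelihood test), 3288 higher in persisters (22.4%) and 3436 lower (23.4%). A fold change of at least 2 was passed by 1424 of the higher genes (9.69% of genes tested) and 1283 of the lower (8.73%). The median log2 fold change over all genes tested was 0.011. A count of called members is read below against these shares. For every gene whose 6 library values are given, persisters and DMSO did not overlap except where stated, as was the case for 57.0% of all genes tested.

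**Figure D1:**
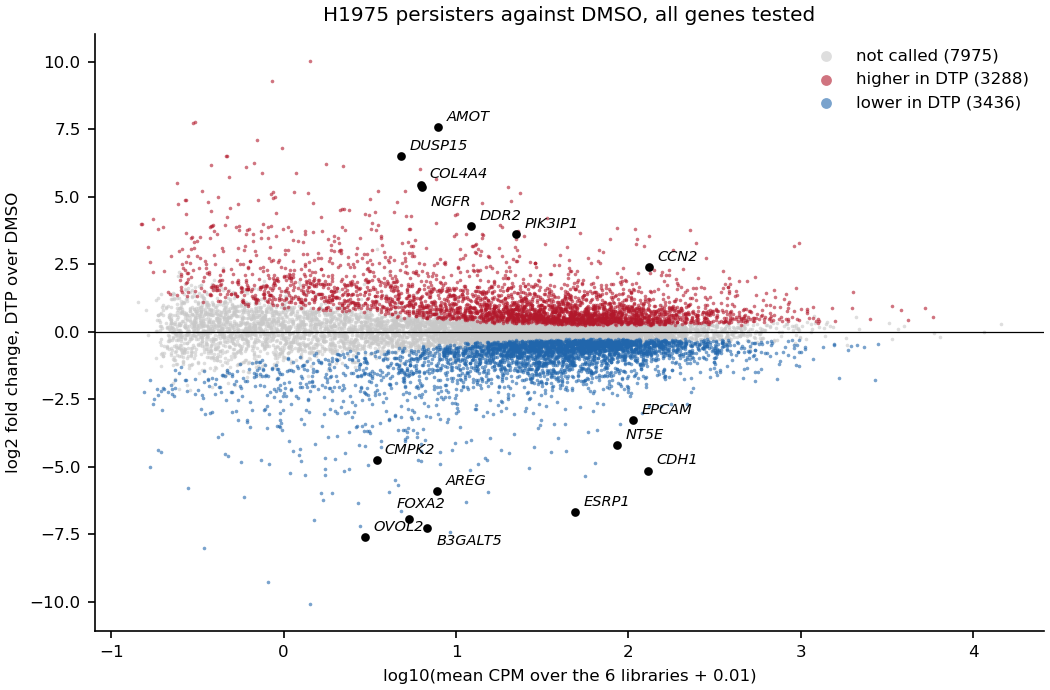
Log2 fold change of persisters over DMSO (y axis) against the log10 mean CPM over the 6 libraries plus 0.01 (x axis), with 1 point for each of the 14699 genes tested, red where called higher, blue where called lower and grey where not called. CDH1 and ESRP1 lie below -5 among genes of high abundance, and AMOT lies above 7 after being close to absent in DMSO.

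The largest rises among genes of at least 1 CPM were seen in genes close to silent in DMSO. AMOT, which encodes the YAP-binding scaffold angiomotin, was at 0.0984, 0.111 and 0.0218 CPM in DMSO and 17.5, 7.08 and 22.6 CPM in persisters (log2 fold change 7.58 ± 0.60 SE, adjusted p = 8.13e-05). The others were DUSP15 (6.52), the small heat shock gene CRYAB (6.22), PLSCR4 (6.15), the potassium channel gene KCNK15 (6.05), RFPL4A (5.88), FAM189A2 (5.67), the basement membrane collagen gene COL4A4 (5.46) and the neurotrophin receptor gene NGFR (5.37). The olfactory receptor gene OR2T8 had 0 counts in the 3 DMSO libraries and 385 in the 3 persister libraries, at least 131-fold higher against a floor of 3 counts over the group.
Several epithelial genes were among the deepest falls. TMPRSS11E, an epithelial serine protease gene, had 409 counts in the DMSO libraries and 0 in the persister libraries, at least 133-fold lower against the same floor. OVOL2, a transcription factor gene that keeps cells epithelial, was at 7.46, 3.35 and 6.94 CPM in DMSO and 0, 0.0581 and 0.024 CPM in persisters (log2 fold change -7.6 ± 0.64). B3GALT5 (-7.27), RTL1 (-7.42), RBBP8NL (-7.20), the endoderm factor FOXA2 (-6.92), ANKRD33 (-6.65) and SOX21, with 429 counts in DMSO and 3 in persisters (a ratio of 140, 95% exact interval 47.6 to 681, counting error only), completed the list with ESRP1 and OVOL1, described next. Without DTP replicate 2 the OVOL2 value was -8.74, and without DMSO replicate 1 the PLSCR4 value was 5.54; DMSO replicates 1 and 3 also set the CRYAB value (5.62 and 7.16 without each), DTP replicate 3 that of KCNK15 (5.23 without it), and DTP replicates 2 and 3 that of SOX21 (-6.36 and -7.88).

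Epithelial identity genes fell in persisters, several of them to levels below 2 CPM. Of 25 epithelial markers, all tested, 16 fell, 1 rose and 8 did not pass, with a median log2 fold change of -1.08. CDH1, the gene of the adherens junction protein E-cadherin (chromosome 16), was at 335, 123 and 303 CPM in DMSO and at 5.28, 7.93 and 8.91 CPM in persisters. The fall was 35.3-fold (log2 fold change -5.14 ± 0.41 SE, adjusted p = 8.19e-05) and the groups did not overlap. DMSO replicate 2 was the lowest of its group for CDH1 and above every persister library, and without it the log2 fold change was -5.48. ESRP1, which encodes a splicing factor that sets epithelial exon use, fell 102-fold from 144, 35.3 and 113 CPM to 0.684, 0.716 and 1.58 CPM (-6.67 ± 0.60). OVOL1, a transcriptional repressor of mesenchymal genes, was at 7.38, 2.53 and 6.01 CPM in DMSO and 0, 0.0968 and 0.096 CPM in persisters (-6.34 ± 0.70). The tight junction gene CLDN7 fell 21.5-fold from 117, 43.2 and 89.4 CPM to 4.57, 3.39 and 3.96 CPM. Lower calls were also made for the grainyhead factor GRHL2 (-5.09, and -6.16 without DTP replicate 2), the membrane protease ST14 (-3.92), MARVELD3 (-3.75) and EPCAM (-3.27), a cell adhesion gene that was at 244, 109 and 220 CPM and then 16.6, 23.4 and 20.7 CPM. The desmosomal plakophilin PKP2 was the exception (1.29). Several structural genes shared by simple epithelia did not pass. KRT8 was at 1110, 1030 and 949 CPM in DMSO and 1160, 892 and 754 CPM in persisters, with overlapping groups (adjusted p = 0.386). KRT18 gave -0.30 (adjusted p = 0.0833), and the junction genes DSP, TJP1, JUP and OCLN lay between -0.46 and -0.04. Of the 6 markers of an epithelial cell line 3 were called lower and 3 did not pass. In the fit without DMSO replicate 2, 4 of these markers were called lower. Against the acute libraries KRT8 was lower (-1.03, adjusted p = 0.0041). In bulk RNA, fewer cells of a type and less RNA per cell cannot be told apart. Without DMSO replicate 2, 18 epithelial markers fell and the median was -1.23.

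**Figure D2:**
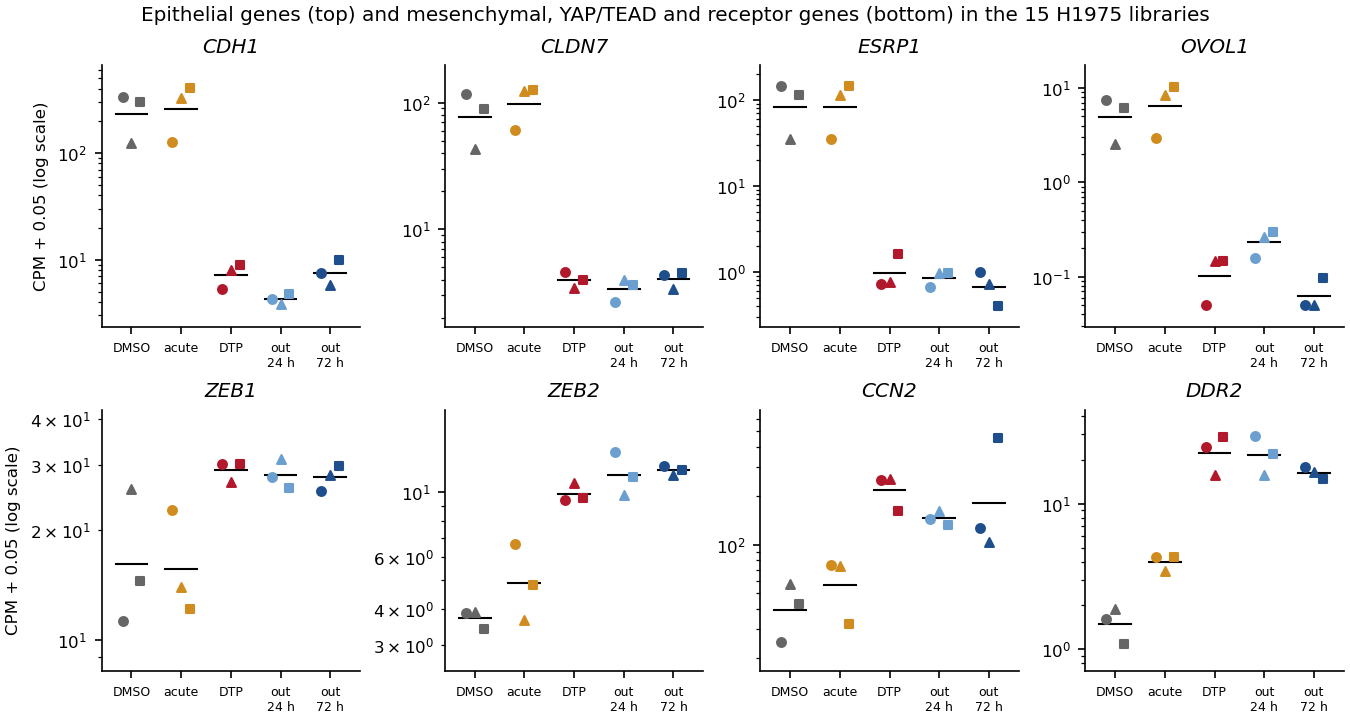
CPM plus 0.05 on a log axis (y) in the 15 H1975 libraries by arm (x: DMSO, 24 h acute, 21-day DTP, and 24 h and 72 h drug washout), for 4 epithelial genes (top) and ZEB1, ZEB2, CCN2 and DDR2 (bottom), with circles, triangles and squares for replicates 1, 2 and 3 and bars for geometric means. The epithelial genes are low in persisters and in both washouts and not in the acute libraries, while DMSO replicate 2 and acute replicate 1 are the lowest of their groups.

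The mesenchymal list moved the other way against DMSO. Of 24 members, 19 were tested, and 12 rose, 3 fell and 4 did not pass, with a median of 1.07. The repressor gene ZEB2 rose from 3.82, 3.86 and 3.36 CPM to 9.36, 10.7 and 9.53 CPM (1.39 ± 0.18). ZEB1 was at 11.2, 25.7 and 14.4 CPM in DMSO and 30.1, 26.9 and 30.2 CPM in persisters, where DMSO replicate 2 lay just under the persister range (0.74 ± 0.26, adjusted p = 0.0463), a call that was lost without DMSO replicate 1 or 3 or any persister library (adjusted p up to 0.145) and that reached 1.14 without DMSO replicate 2. The smooth muscle actin gene ACTA2 (2.20), the actin-binding TAGLN (1.65), the matrix protease MMP14 (1.64), S100A4 (1.61), SPARC (1.43) and the collagen cross-linkers LOXL2 (1.36) and LOX (1.16) also rose. SNAI1 (-0.81), TGFBI (-0.67) and the matrix glycoprotein TNC (-1.36) fell. Vimentin (VIM) was already abundant in DMSO, at 1230, 2430 and 1430 CPM against 2650, 2170 and 2700 CPM in persisters, with overlapping groups (0.54, adjusted p = 0.0857, and 0.87 with adjusted p = 0.00207 without DMSO replicate 2). N-cadherin (CDH2), TWIST1, TWIST2 and FAP had too few counts to be tested, and FOXC2 was not analysed here.

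Of 26 integrin and laminin genes tested 12 fell and 5 rose. The integrin chain ITGB6, an epithelial receptor that activates TGF-beta, was at 34.5, 5.5 and 15.7 CPM in DMSO and 1.35, 1.37 and 0.576 CPM in persisters (-4.11 ± 0.65, and -3.30 without DMSO replicate 1). ITGB2, the beta chain of the leukocyte integrins, fell from 17.8, 10.8 and 13.5 CPM to 1.44, 1.3 and 2.55 CPM (-3.04 ± 0.32). ITGA6, the alpha chain of the hemidesmosome integrin, fell 6.43-fold from 277, 302 and 335 CPM to 46.8, 60.2 and 38.3 CPM, and the epithelial laminin chain genes LAMA3 (-1.67) and LAMB3 (-1.5) fell too. LAMB2, a chain of other basement membrane laminins, rose (1.5). Of 23 collagen genes tested 10 rose and 5 fell. The anchoring fibril gene COL7A1 fell from 497, 279 and 357 CPM to 73.3, 61.5 and 46 CPM (-2.68 ± 0.24), as did the hemidesmosome collagen COL17A1 (-2.91). COL3A1 had 3 counts in DMSO and 50 in persisters, a ratio of 17 with a 95% exact interval of 5.5 to 85.4 that covers counting error only.

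Targets of YAP and TEAD, the transcriptional arm of the Hippo pathway, had 14 of 24 tested members higher, 3 lower and 7 not passing, with a median of 1.12. CCN2, a secreted matricellular protein gene and standard YAP target, was at 24.8, 56.8 and 43 CPM in DMSO and 252, 253 and 162 CPM in persisters (5.25-fold, log2 2.39 ± 0.29, adjusted p = 0.000399). ANKRD1 rose from 5.1, 41.8 and 13.6 CPM to 290, 218 and 216 CPM (3.56, and 4.65 without DMSO replicate 2, the highest of its group). CCN1 (1.78), TGFB2 (2.09) and AJUBA (1.65) rose too. NT5E, the ecto-nucleotidase CD73, which is on the list as a target, went against it from 217, 107 and 166 CPM to 7.86, 10.3 and 9.1 CPM (-4.20 ± 0.27). Of the effectors, YAP1 gave -0.10 (adjusted p = 0.466) and its paralog WWTR1, the gene of TAZ, fell from 198, 117 and 168 CPM to 75.8, 75.9 and 62.6 CPM (-1.21 ± 0.19).

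ERK output fell. EGFR itself was at 401 ± 17.6 CPM (SD, n = 3) in DMSO and 237 ± 30.0 CPM in persisters (-0.79 ± 0.12, adjusted p = 0.000882). Of 23 genes that report ERK activity, 18 were lower and 3 higher, with a median of -1.81, the lowest median of the 28 lists. The ERK phosphatase gene DUSP6 was at 11.4, 7.56 and 10.2 CPM in DMSO and 1.19, 1.95 and 0.816 CPM in persisters (-2.90 ± 0.34). SPRY4, a feedback inhibitor, fell from 7.38, 14.3 and 13.3 CPM to 0.375, 0.716 and 0.216 CPM (-4.74 ± 0.44). The ETS factor ETV4 fell 15.1-fold, the AP-1 gene FOSL1 8-fold and EGR1 by 2.94 on the log2 scale. EGFR ligand genes moved in opposite directions within this list. AREG (amphiregulin) went from 21.6, 9.49 and 14.7 CPM to 0.221, 0.329 and 0.216 CPM, a 60.0-fold fall (-5.91 ± 0.40, adjusted p = 4.5e-05), and EREG (epiregulin) from 51.5, 26.3 and 38.2 CPM to 2.23, 2.19 and 0.888 CPM (-4.47 ± 0.37). HBEGF, the heparin-binding ligand, rose from 8.74, 18.3 and 10.9 CPM to 65.9, 62.3 and 44.9 CPM (2.16 ± 0.27). SPRY2 (0.63) and IER3 (0.71) were the other members that rose.

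Among 22 receptor kinase genes tested 6 rose and 7 fell. ERBB3, the kinase-impaired partner of EGFR and ERBB2, was at 75.7, 22.8 and 69.3 CPM in DMSO and 5.65, 5.01 and 4.97 CPM in persisters (11-fold lower, -3.46 ± 0.41, and -3.84 without DMSO replicate 2). The collagen receptor DDR2 rose 15.2-fold from 1.57, 1.84 and 1.03 CPM to 24.7, 15.7 and 28.6 CPM (3.92 ± 0.29). ROS1 (2.75), PDGFRB (1.51), the insulin receptor INSR (1.19) and FGFR3 (1.03) rose. MET fell from 553, 472 and 578 CPM to 321, 367 and 301 CPM (-0.73 ± 0.13). AXL, a receptor often followed in drug tolerance, was at 90, 196 and 127 CPM in DMSO and 85.2, 98.4 and 87.3 CPM in persisters, with overlapping groups (-0.64, adjusted p = 0.0528), and passed at -0.87 without DMSO replicate 1 (adjusted p = 0.00652).

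**Figure D3:**
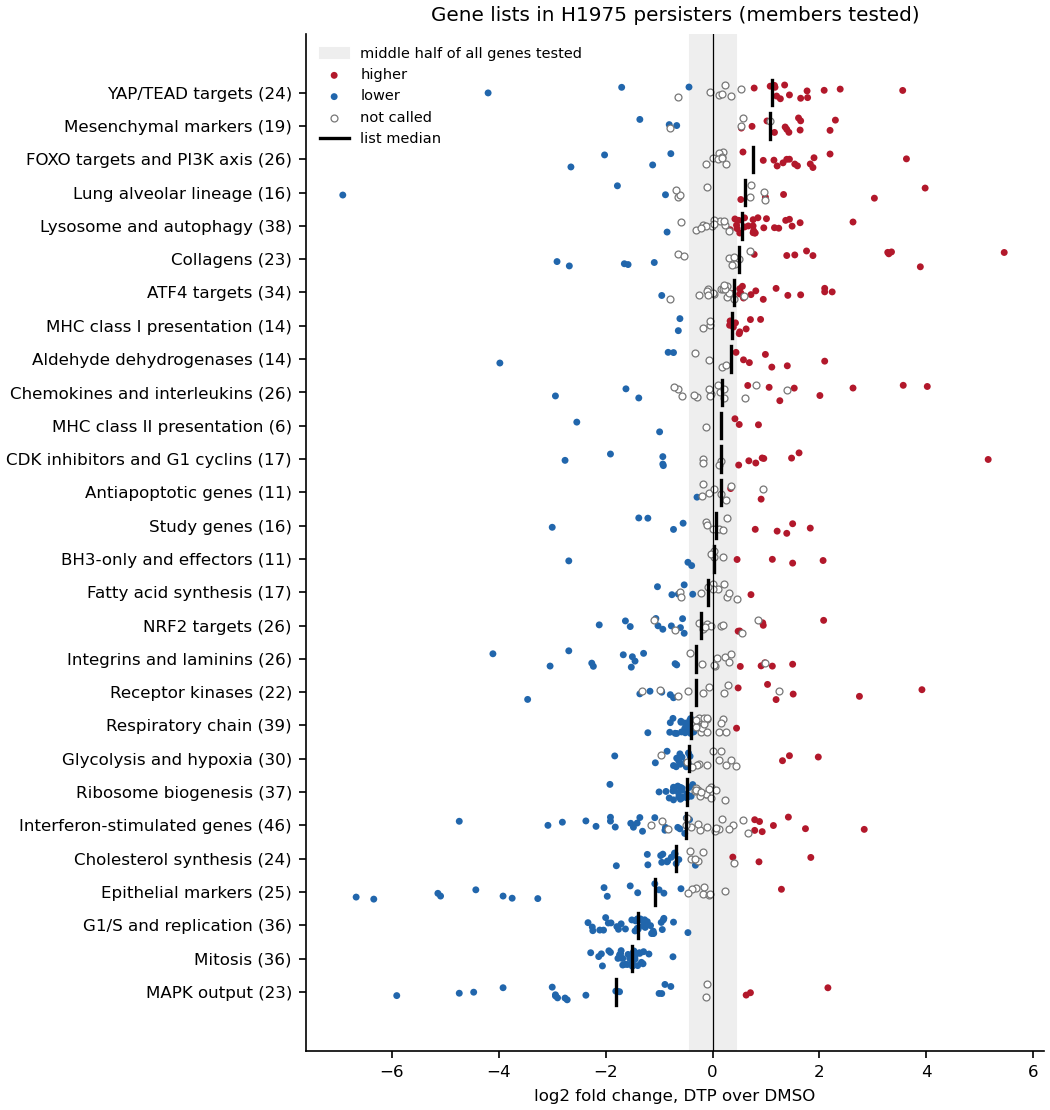
Log2 fold change of persisters over DMSO (x axis) for the tested members of 28 gene lists (y axis, number tested in brackets, ordered by median), with red points called higher, blue called lower, open points not called, a black bar at each list's median and a grey band from the lower to the upper quartile of all genes tested. ERK output, mitosis, replication and epithelial genes lie lowest, and YAP/TEAD targets, mesenchymal, FOXO, alveolar lineage and lysosome genes highest.

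Cell division genes fell together. All 36 mitosis genes and all 36 G1/S and replication genes were tested and called lower, with medians of -1.52 and -1.40 against a share of 23.4% of all genes called lower. MKI67, the gene of the Ki-67 proliferation antigen, was at 765, 649 and 683 CPM in DMSO and 201, 339 and 117 CPM in persisters (-1.71 ± 0.32, adjusted p = 0.00281). NEK2, a centrosome kinase gene, gave -2.28 and the spindle checkpoint kinase gene BUB1 -2.13, and the replication genes PRIM1 (-2.33) and TK1 (-2.25) were the lowest of the G1/S list. Persister libraries differed among themselves here: all 36 mitosis genes were highest in DTP replicate 2 and lowest in DTP replicate 3. The mean log2(CPM + 1) over the mitosis list was 7.04 to 7.17 in the DMSO libraries and 5.48, 6.11 and 4.81 in persister replicates 1, 2 and 3.
Promoters of mitotic genes are known for CCAAT boxes, bound by NF-Y, and for cell-cycle homology regions (CHR), where the DREAM and B-MYB complexes sit. In the 250 bases before the start of each gene (RefSeq, GRCh38.p14), CCAAT or ATTGG was found in 23 of the 29 mitosis genes with a promoter in the table and in 33.0% of all 27305 promoters, and TTTGAA or TTCAAA in 15 of the 29 and in 13.6% of all. A match is a description of the letters and not a bound site. NEK2, BUB1 and HMMR were among the largest falls of the mitosis genes with a promoter in the table. Their promoters are shown so that the letters of any match can be read, 5′ to 3′ on the strand of the gene. Each ends at the base before the start, with any match to either motif in capitals.
NEK2, chr1:211675622-211675871, minus strand: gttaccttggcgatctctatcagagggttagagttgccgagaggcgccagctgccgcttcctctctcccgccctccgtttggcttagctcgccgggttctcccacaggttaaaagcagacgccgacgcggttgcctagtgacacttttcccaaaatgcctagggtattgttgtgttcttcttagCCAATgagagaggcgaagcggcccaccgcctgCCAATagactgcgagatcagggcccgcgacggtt
BUB1, chr2:110678064-110678313, minus strand: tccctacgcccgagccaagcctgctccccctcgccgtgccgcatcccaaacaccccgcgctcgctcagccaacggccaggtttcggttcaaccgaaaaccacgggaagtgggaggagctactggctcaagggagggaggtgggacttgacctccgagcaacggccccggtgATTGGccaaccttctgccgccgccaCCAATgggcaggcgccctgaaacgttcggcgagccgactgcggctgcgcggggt
HMMR, chr5:163460382-163460631, plus strand: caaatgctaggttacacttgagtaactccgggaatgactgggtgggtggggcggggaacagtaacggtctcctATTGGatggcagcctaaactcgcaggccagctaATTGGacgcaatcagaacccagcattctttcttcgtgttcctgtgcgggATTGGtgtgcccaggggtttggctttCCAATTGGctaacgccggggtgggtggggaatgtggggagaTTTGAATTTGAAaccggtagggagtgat
NEK2 and BUB1 each held 2 CCAAT or ATTGG matches and no CHR match in these windows. HMMR, a hyaluronan receptor gene of the spindle (-1.91), held 7 matches that included 2 adjacent CHR motifs. For the epithelial list a search of this kind is void, since promoters were found for 6 of 16 of the genes that fell. For the interferon list they were found for 16 of 21, so its counts are incomplete. The interferon-stimulated response element (ISRE) was matched in 9 of these 16 genes and in 3.07% of all promoters. It was matched in 19 of the 34 list members with a promoter, which include genes that did not fall.

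The G1 cyclins moved in opposite directions. CCND1 (cyclin D1) fell 6.77-fold from 198, 386 and 221 CPM to 28.8, 57.4 and 35 CPM, and CCND3 fell from 52.1, 57.5 and 57.4 CPM to 14.9, 19.6 and 11 CPM (-1.91 ± 0.19). CCND2 (cyclin D2) rose from 0.059, 0.0666 and 0.0874 CPM to 2.91, 2.65 and 2.5 CPM (5.16 ± 0.38), a level still below that of the other cyclin genes on this scale, which is not per length. CDK4 fell (-0.93) and CDK6 rose from 120, 123 and 144 CPM to 245, 222 and 288 CPM (0.93 ± 0.13). The CDK inhibitor gene CDKN1B rose (0.81 ± 0.11), as did CDKN2B (0.96), while CDKN1A was at 42.9, 25.7 and 38.5 CPM in DMSO and 42.2, 24.5 and 30.4 CPM in persisters, with overlapping groups (adjusted p = 0.558).

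**Figure D4:**
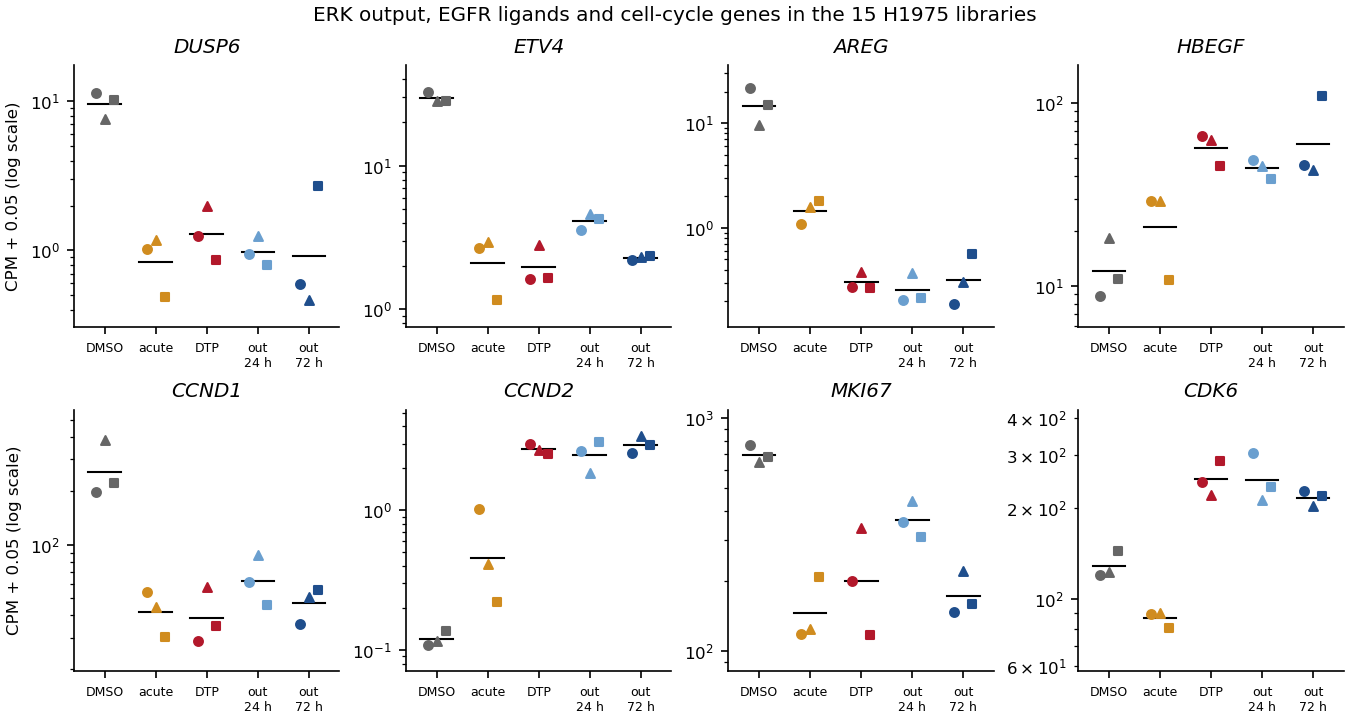
CPM plus 0.05 on a log axis (y) in the 15 H1975 libraries by arm (x: DMSO, acute, DTP, 24 h and 72 h washout) for ERK output, EGFR ligand and cell-cycle genes, with circles, triangles and squares for replicates 1, 2 and 3 and bars for geometric means. DUSP6, ETV4, AREG and CCND1 are low in all drug-treated and washout arms, whereas HBEGF, CCND2 and CDK6 are highest in persisters and washouts.

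Genes of the FOXO and PI3K axis had 14 of 26 members higher and 4 lower, with a median of 0.76. PIK3IP1, a negative regulator of PI3K, rose 12.4-fold from 3.84, 2.64 and 3.32 CPM to 57.2, 21.8 and 45.7 CPM (3.63 ± 0.34). CITED2 (2.20), SESN3 (1.88), BCL6 (1.83), IRS2 (1.59) and TXNIP (1.54) rose, and IRS1, the insulin receptor adaptor, fell from 120, 90 and 130 CPM to 20, 16.5 and 19.2 CPM (-2.65 ± 0.16). Lysosome and autophagy genes rose in 25 of 38 tested members and fell in 1, with a median of 0.55. GABARAPL1, an autophagosome protein gene, rose 6.2-fold from 6.49, 6.41 and 5.59 CPM to 46.1, 31.6 and 39.8 CPM, progranulin (GRN) 3.13-fold, and the lysosome regulators TFEB (1.16) and TFE3 (0.76) also rose. The cathepsin gene CTSL was the member that fell (-0.85). Targets of ATF4, the factor of the integrated stress response, rose in 17 of 34 members and fell in 1, with a median of 0.39. The secreted glycoprotein gene STC2 rose from 83.1, 191 and 90.1 CPM to 650, 484 and 616 CPM (2.24 ± 0.30), and ALDH1L2, a mitochondrial folate enzyme gene, rose 4.28-fold.

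Lists of biosynthetic and energy genes had more members lower than higher. Ribosome biogenesis genes fell in 23 of 37 members (median -0.48), cholesterol synthesis genes in 15 of 24 with 3 higher (median -0.69), glycolysis and hypoxia genes in 15 of 30 with 3 higher (median -0.45) and respiratory chain genes in 21 of 39 with 1 higher (median -0.41). Without DMSO replicate 2, 17 cholesterol genes fell and 2 rose (median -0.84). In the same fit 18 glycolysis and hypoxia genes fell and 3 rose (median -0.54). The mean log2(CPM + 1) overlapped between groups in both lists. It was 5.49 in DMSO replicate 2 and 5.50 in DTP replicate 2 for cholesterol synthesis. For glycolysis and hypoxia it was 7.16 in DMSO replicate 2 and 7.25 in DTP replicate 1. Fatty acid synthesis genes fell in 5 of 17 with 1 higher (median -0.09), a share near that of all genes. Without DMSO replicate 2 they fell in 7 with 2 higher (median -0.28). INSIG1, a sterol feedback gene, fell 3.47-fold from 113, 46.6 and 101 CPM to 23.3, 30.7 and 22.9 CPM, and the sterol isomerase gene EBP fell (-1.22), whereas the sterol synthesis genes LSS and TM7SF2 rose (0.87 and 1.84). The respiratory gene with the largest fall was ATP5F1B, the beta subunit of ATP synthase, at 1400, 1000 and 1470 CPM and then 585, 647 and 486 CPM (-1.21 ± 0.17). Of 26 NRF2 targets 10 fell and 5 rose, with HMOX1, the heme oxygenase gene, falling from 152, 131 and 172 CPM to 45.2, 36.5 and 25.5 CPM (-2.12 ± 0.20) and AKR1C3 rising (2.08 ± 0.32). Of 14 aldehyde dehydrogenase genes tested 7 rose and 3 fell. ALDH1A1 had 0 counts in the 3 DMSO libraries and 1 in the 3 persister libraries, so no change could be detected at this depth.

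Interferon-stimulated genes moved in both directions. Of 46 members 21 fell and 8 rose, with a median of -0.49. CMPK2, a mitochondrial nucleotide kinase gene, was at 10.6, 1.69 and 7.62 CPM in DMSO and 0.375, 0.194 and 0.192 CPM in persisters (-4.74 ± 0.70, adjusted p = 0.000903), and its neighbour RSAD2, the gene of the antiviral enzyme viperin, fell from 11.1, 3.59 and 8.82 CPM to 1.24, 0.658 and 0.96 CPM (-3.08 ± 0.45). In GENCODE release 29, 68 of 185 named genes share exonic bases with an antisense gene, CDH1, CLDN7, KRT8 and KRT18 among them. CMPK2 and RSAD2 lie on opposite strands of chromosome 2 with overlapping exons, and no source used here states whether the counting used strand. OASL fell from 44.7, 20.3 and 37.5 CPM to 4.66, 5.69 and 4.59 CPM (-2.81 ± 0.29), and the RNA sensors DDX58 and IFIH1 by 1.91 each on the log2 scale. The guanylate-binding protein gene GBP2 rose from 7.99, 13.1 and 7.69 CPM to 80.7, 52.8 and 76.8 CPM (2.84 ± 0.24), with TRIM22 (1.74), GBP1 (1.42) and BST2 (1.14). Without DMSO replicate 2 the list had 26 lower and 6 higher members and a median of -0.65. Of 14 class I presentation genes tested 9 rose, none by 2-fold. Of 6 class II presentation genes tested 3 rose, the promoter-binding factor gene RFX5 (0.86) among them, and 2 fell, with a median of 0.15. CTSS, a cathepsin of class II presentation, fell from 9.64, 6.06 and 10.6 CPM to 1.17, 0.871 and 2.62 CPM (-2.54, and -3.14 without DTP replicate 3). HLA genes were not analysed here.

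Lineage, secretion and survival genes gave single large changes rather than a shared direction. The lung and endoderm factor FOXA2 fell from 12.9, 7.14 and 11.8 CPM to 0.0662, 0.0774 and 0.12 CPM, 121-fold. SFTPC, the surfactant protein C gene, had 2 counts in DMSO and 37 in persisters, a ratio of 18.9 with a 95% exact interval of 4.88 to 162. Over the alveolar lineage list 5 of 16 rose and 3 fell, with a median of 0.61. The monocyte chemokine gene CCL2 rose from 1.1, 0.976 and 0.502 CPM to 17.4, 11.7 and 14 CPM (4.02 ± 0.31), and IL11, which is also counted under ERK output, fell from 38.9, 26.6 and 31 CPM to 4.46, 6.31 and 2.04 CPM (-2.94 ± 0.36), in a chemokine and interleukin list with 8 higher and 3 lower of 26. Of 11 BH3-only and effector genes of apoptosis 4 rose and 3 fell. HRK rose from 1.38, 3.77 and 2.69 CPM to 12.7, 9.42 and 11.5 CPM (2.07 ± 0.33) and BMF rose (1.5 ± 0.26), BIK fell (-2.69 ± 0.55), and BCL2L11, the gene of BIM, gave 0.02 (adjusted p = 0.93). Of 16 genes taken from the study's own resistance work 5 rose and 5 fell, which include BCL6 (1.83), CALCOCO1 (1.21) and SRC (0.80) above and FOSL1 (-3.00), EZH2 (-1.38) and KCTD5 (-0.55) below, while NF1, KEAP1 and YAP1 did not pass.

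Against the acute libraries, 24 hours into the same dose, 3894 of 14888 genes tested (26.2%) differed, 1673 higher in persisters (11.2%) and 2221 lower (14.9%). The number depended on the libraries used: 1775 genes were called without acute replicate 2, 2224 without acute replicate 3, and 2567, 2378 and 2570 without DTP replicates 1, 2 and 3. Epithelial genes made the clearest difference, with 20 of 25 lower than in acute cells and a median of -1.88 against 0.011 over all genes tested. CDH1 was at 127, 331 and 405 CPM in the acute libraries (persisters lower by -5.31 ± 0.45, adjusted p = 0.00036), and the acute level differed from DMSO by 0.11 on the log2 scale (adjusted p = 0.867). ERBB3 was at 53.2, 150 and 200 CPM in acute cells, and persisters were lower by 4.72 on the log2 scale. The deepest differences were in RBBP8NL (-7.97), FXYD3 (-7.92), OVOL2 (-7.37), the tyrosine kinase gene SYK (-7.19), ANKRD33 (-6.99) and ERP27 (-6.82, and -5.77 without acute replicate 3) and the OVOL2 value was -8.50 without DTP replicate 2. Interferon-stimulated genes were lower than in acute cells in 35 of 46 cases and higher in 2, with a median of -1.15. CMPK2 was at 4.66, 15.5 and 11.8 CPM in acute cells and differed by -5.41. Without acute replicate 1, CLDN7 differed by -4.99 and OASL by -3.0, against -4.72 and -2.76 with it.
ERK output was not lower again as a list: 7 of 23 genes were above and 4 below the acute level, with a median of 0.22. DUSP6 was at 0.977, 1.13 and 0.436 CPM in acute cells, and its difference from persisters did not pass (adjusted p = 0.355). AREG lay below its acute level of 1.04, 1.54 and 1.74 CPM (-2.50 ± 0.41), and HBEGF was above its acute level (1.31). Mitosis genes were called above their acute level in 1 of 36 cases (median 0.51), G1/S genes in 9 of 36 (median 0.53) and ribosome biogenesis genes in 22 of 37 (median 0.54). The 3 medians were thus close while the numbers called differed. Cholesterol synthesis genes were below their acute level in 15 of 24 (median -0.58). Of 19 mesenchymal genes 6 were above and 4 below the acute level, with a median of 0.22. The YAP/TEAD, FOXO and lysosome lists had medians of 0.13, -0.01 and 0.01 against acute cells. EDN2, the endothelin-2 gene, was at 0.956, 0.907 and 0.944 CPM in acute cells and 23.3, 33.4 and 61.3 CPM in persisters (5.37 ± 0.38), and PXYLP1 (4.52), ILDR2 (4.57), AMOT (4.34) and RFPL4A (4.30, and 5.59 without acute replicate 2) were also among the highest. CDKN1A, the p21 gene, was at 63.8, 104 and 120 CPM in acute cells and lower by 1.59 in persisters.

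In a fit of 24 libraries, the persister effect in H1975 was set against the mean effect in PC9, HCC827 and HCC2935. The DMSO and persister libraries held 34.7 M to 47.1 M estimated counts in PC9, 19.1 M to 22.5 M in HCC827 and 20.4 M to 24.7 M in HCC2935. Genes with few counts are therefore measured less well in HCC827 and HCC2935 than in H1975. Of 16001 genes tested, 4409 (27.6%) differed, 2037 with a higher effect in H1975 (12.7%) and 2372 with a lower effect (14.8%). Of all genes tested, 971 (6.07%) differed also from each single line in the same direction, 406 higher in H1975 (2.54%) and 565 lower (3.53%). Of 25 epithelial genes 15 had a lower effect in H1975 and 8 of them against each line. The medians of the epithelial list were -1.08 in H1975, 0.42 in PC9, -1.11 in HCC827 and -0.09 in HCC2935. CDH1 changed by -5.14 in H1975 against 1.05, -1.85 and -0.09 in PC9, HCC827 and HCC2935 (difference -4.85 ± 0.39, adjusted p = 2.63e-08), and ESRP1 differed by -6.0 ± 0.52. The effects on AREG (difference -4.54), EREG (-4.04), CCND1 (-2.0) and CCND3 (-1.82) were also lower than in each line. HBEGF gave a higher effect than the mean of the lines (1.42) but not than each line, and the CCND2 difference of 4.82 did not pass (adjusted p = 0.0541). Interferon-stimulated genes had a lower effect in H1975 in 37 of 46 cases, 12 of them against each line, and list medians of -0.50 in H1975, 2.64 in PC9, 0.78 in HCC827 and -0.04 in HCC2935. RSAD2 gave -3.08 in H1975 and 6.85, 5.02 and -0.24 in the others (difference -6.96 ± 0.64). The mitosis list had medians of -1.52 in H1975 and -1.57, -1.42 and -1.55 in PC9, HCC827 and HCC2935. Of 19 mesenchymal genes 8 had a lower and 2 a higher effect in H1975. Their medians were 1.06 in H1975 and 0.56, 1.5 and 1.92 in PC9, HCC827 and HCC2935.
Higher effects in H1975 against each line were led by AMOT (6.54 ± 0.61), MGAT4C (6.32, and 6.94 without DMSO replicate 2), C2CD4A (4.05), PLSCR4 (3.95, and 3.35 without DMSO replicate 1), DDR2 (3.63) and the retinol acyltransferase LRAT (3.63). FN1, the fibronectin gene, was abundant in H1975 already, at 1370, 805 and 650 CPM in DMSO, and its effect was lower by 2.33 than the mean of the other lines, where it was 3.79, 2.76 and 2.16. ATF4 targets had a higher effect in H1975 in 18 of 34 cases, with medians of 0.39 against -0.45, -0.36 and 0.29.

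**Figure D5:**
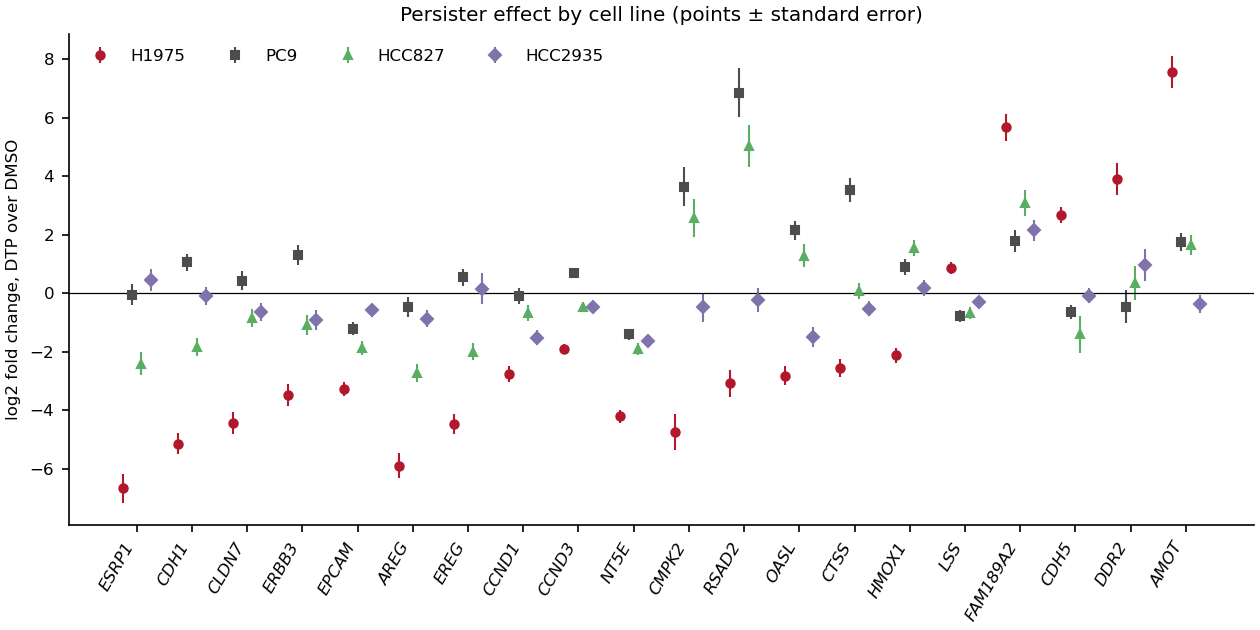
Log2 fold change of persisters over DMSO (y axis) in H1975, PC9, HCC827 and HCC2935 for 20 genes (x axis), as points with standard errors from the fit of 24 libraries. H1975 is the lowest line for the epithelial genes, AREG, EREG, CCND1 and CCND3 at the left and the highest for LSS, FAM189A2, CDH5, DDR2 and AMOT at the right, while CMPK2 and RSAD2 rise in PC9 and HCC827 and fall in H1975.

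After drug removal the epithelial genes were low in all 6 washout libraries. CDH1 was at 4.22, 3.79 and 4.68 CPM after 24 hours of washout and 7.37, 5.78 and 9.8 CPM after 72 hours, in each library below the 123 CPM of the lowest DMSO library. ESRP1 stayed between 0.352 and 0.962 CPM over the 6 washout libraries and CLDN7 between 2.62 and 4.43 CPM. The mean log2(CPM + 1) of the epithelial list was 4.41 to 4.53 in persisters, 4.37 to 4.44 after 24 hours and 4.45 to 4.52 after 72 hours, against 5.37 to 6.31 in DMSO. ERK output also stayed low, with list means of 3.21 to 3.57 in persisters, 3.34 to 3.65 after 24 hours and 3.09 to 3.96 after 72 hours, against 4.88 to 4.97 in DMSO. DUSP6 was at 0.549, 0.418 and 2.65 CPM after 72 hours, with replicate 3 the highest. Division genes were higher after 24 hours than after 72 hours: MKI67 was at 357, 440 and 309 CPM and then at 147, 221 and 160 CPM, against 649 CPM or more in DMSO. These washout levels are a description, with no test.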

How the data were processed

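Poly(A) RNA from the 60 cultures was sequenced with paired reads, and the authors deposited estimated counts per gene (rounded here to whole numbers) and log2 TPM with a pseudocount of 0.01. The submitters' processing notes name HISAT2 2.1.0, Salmon 0.8.2 and hg38, and the strand setting of the counting is not given in the sources used here. Intervals and floors cover counting error only. Groups were taken from the labels. Persisters and DMSO were compared with edgeR's quasi-likelihood test (edgeR 4.0.16, R 4.3.3, TMM normalization, filterByExpr) on the 6 libraries, with Benjamini-Hochberg adjustment over all genes tested and a threshold of 0.05. The comparison with acute cells used its own 6 libraries, and that with the other lines a fit of 24 libraries with a contrast of persister effects. CPM values were computed from the counts of all 60 libraries on TMM library sizes. The persister libraries are shared by the comparisons. p-values measure the spread between the triplicates of each group. Each standard error is the absolute log2 fold change divided by the square root of the F statistic of the quasi-likelihood test. The fold changes carry edgeR's prior count, so both values are approximate for genes near the floor of counts.

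The members and lists were chosen with earlier results of these data known. Named genes were EGFR, DUSP6, SPRY4, MKI67 and the list of 16 genes that includes the study's resistance genes, the 2 highest and 2 lowest called members and the first member of each list, the 10 highest and 10 lowest called genes of at least 1 CPM without overlap, and the 6 highest and lowest in the other comparisons. Other members named were chosen after their values were seen. Alternatives were DESeq2 1.42.0, limma 3.58.1 on the log2 TPM, other size factors and filters, a replicate block, wider fits, and leaving out each library. The scripts were tested on simulated data. HLA genes, NKX2-1, VEGFA, FOXC2 and FOXF2 were not analysed here. Some list members are not reported here.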

Additional observations from a re-analysis of the deposited data

Results flagged for a closer look

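The persister effect of 12 named genes differed between H1975 and the other 3 lines by the test of the difference itself, the contrast of persister effects in edgeR's quasi-likelihood fit of 24 libraries, and these genes were named for the size of that difference or of their change in H1975. The log2 effect in H1975 was lower than the mean of the other lines by -6.64 for CMPK2, -6.96 for RSAD2, -8.33 for TMPRSS11E, -6.74 for RBBP8NL, -6.92 for GABRE and -6.84 for MYO7B. It was higher by 3.63 for DDR2, 6.54 for AMOT, 3.95 for PLSCR4, 6.32 for MGAT4C, 4.05 for C2CD4A and 3.63 for LRAT. The GABRE difference was -7.90 without DTP replicate 1, and TMPRSS11E had 0 counts in the H1975 persister libraries, so that its fitted value depends on the prior count.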

How the results depend on the processing

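Over 150 alternative values of the counts of called genes, 123 lay within the 1.5-fold margin, and no named gene called against DMSO or acute cells changed sign under these alternatives. Calls were lost more often: 145 of 163 named genes called against DMSO kept the call whichever 1 library was left out. Against acute cells 20 of 25 did. At an adjusted p below 0.01 the calls against DMSO numbered 4248 (2048 higher, 2200 lower), and with a 2-fold change required 2707 (1424 higher, 1283 lower). At 0.01 the calls against acute cells numbered 1378 (400 higher, 978 lower) and those against the other lines 2732 (1214 higher, 1518 lower). The fit of all 15 H1975 libraries gave 2809 genes higher than in acute cells, and limma on the log2 TPM 1083 higher against the other lines; the cause was not tested. Leaving out 1 library gave 4906 (without DMSO replicate 3) to 7027 calls against DMSO (2369 to 3423 higher, 2537 to 3604 lower), 1775 (without acute replicate 2) to 4610 against acute cells (541 to 1995 higher, 1234 to 2615 lower) and 3307 to 4641 against the other lines (1476 to 2181 higher, 1831 to 2460 lower). DESeq2 called 7077 genes against DMSO, 6640 of them shared. The ZEB1 difference of 0.51 from the mean of the lines was -1.87 against HCC827 alone, and the AXL difference of -1.5 was 0.56 against PC9 alone. Same-numbered persister and DMSO libraries deviated together with correlations of 0.113, 0.0763 and -0.0802, and differently numbered ones with -0.144 to 0.0686. The deviations of 3 libraries from their own mean are tied to each other, so these values cannot decide whether the numbers pair the samples. A replicate block gave 6355 calls against DMSO, 3380 against acute cells and 3817 against the other lines. Genes at or near 0 counts in a group are limited by depth.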

Other observations

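In H1975 the long washout did not carry the highest level of division genes. The mean log2(CPM + 1) over the 36 mitosis genes was 6.2, 6.57 and 6.02 after 24 hours without drug and 5.09, 5.52 and 5.21 after 72 hours, beside 5.48, 6.11 and 4.81 in the persisters and 7.04 to 7.17 in DMSO. The G1/S list gave 5.52, 5.73 and 5.37 after 24 hours and 4.63, 4.84 and 4.70 after 72 hours. These levels were not tested. Replicate 3 of the 72-hour washout was the highest of its group for DUSP6 (2.65 CPM against 0.549 and 0.418), HBEGF (109 CPM against 45.7 and 43.2) and CCN2 (454 CPM against 126 and 103).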
